A study of Saccharomyces cerevisiae with 24 samples.

Results

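The genes described here are 47 factors of Saccharomyces cerevisiae that build ribosomes, chosen by name from the NOP, UTP, DBP, RRP and IMP genes and the genes of pre-60S factors, out of 6713 transcripts measured. RNA was sequenced in 24 libraries of the strains BY4742 (a laboratory strain of the S288C background), YPS606, Y55 and UWOPS87_2421 (the spelling of the sample titles). Each strain had 3 libraries from cells given 20 mM caffeine for 4 h and 3 libraries from cells given none, all grown in synthetic defined medium to an OD of 0.4 at harvest. The sample labels number the libraries from 25 to 48, and these numbers name single libraries below. Nothing states that the 3 libraries of a group came from separate cultures, so the p-values measure the spread between these libraries, which may be technical.

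Ribosomes are made in the nucleolus, where RNA polymerase I transcribes the long precursor of the rRNAs and assembly factors fold, cut and modify it while ribosomal proteins bind. Small nucleolar ribonucleoproteins (snoRNPs) place methyl groups and pseudouridines, the 90S particle shapes the precursor of the small subunit, DEAD-box helicases rearrange the RNA, and pre-60S factors build the large subunit. In budding yeast the genes of these factors are known to be transcribed together, with growth and through the kinase TORC1, which caffeine inhibits. Many carry a pair of promoter elements named PAC and RRPE. TOD6 and DOT6 encode repressors that bind PAC, and STB3 encodes a protein that binds RRPE.

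By these roles, 6 of the 47 encode the snoRNP core, 13 act in the 90S particle or on the pre-40S subunit, 8 are DEAD-box helicases and 20 act on the pre-60S subunit. The label was checked against the gene annotation of build R64, in which 41 of the 47 carry the nucleolus as a cellular component, against 225 of 6021 protein-coding genes in all. A further 3 are annotated to a preribosome only, and NHP2 (an snoRNP core protein), DBP2 (a helicase) and SDA1 (a pre-60S factor) to neither. The 47 lie on 13 chromosomes, none overlaps another protein-coding gene, and no 2 of them are neighbours. All 47 passed the filter on low counts, and the lowest estimated count of any of them in any library was 433. For 38 of them the estimated count was whole in every library. The values of NOP56, NOP58, NOP4, NOP13, NSR1, CBF5, HAS1, RRP9 and EBP2 are less certain, since kallisto divided some of their reads with another transcript.

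The depth of a library was 8714049 estimated counts in the shallowest, 21107258 at the median and 29524968 in the deepest. The labels were checked with genes listed as deleted in whole or part in BY4742. LEU2, URA3 and LYS2 had at most 5 counts in every BY4742 library and LEU2 and LYS2 had at least 542 in every other library. HIS3, the other gene listed, had 1693 to 1913 counts in BY4742 without caffeine and 3118 to 4201 in caffeine. It thus did not mark BY4742 by absence. URA3 had 1 count in each of the UWOPS87_2421 libraries 28 and 32 against 885 to 2114 in the other 4, and 10 and 41 counts in the Y55 libraries 31 and 27 against 270 to 2341 in the other 4. UWOPS87_2421 and Y55 differed in 4 genes of 6400, all on the 2-micron plasmid, at an adjusted p under 0.05 by edgeR both in caffeine and without it. The libraries under these labels are therefore not treated as independent backgrounds for the 47 factors. Whether the strains are this alike or a strain label is wrong, and whether the libraries low in URA3 come from another derivative, cannot be told apart here, and all values below are given by label. At an unadjusted p under 0.05 the numbers were 124 in caffeine and 245 without. The summed level of 20 stress genes in counts-per-million units (CPM, scaled as described below) set 3 libraries apart from their groups. It was 17332 CPM in the YPS606 library 42 without caffeine against 5858 and 6159 in the other 2, 13805 in the Y55 library 35 without caffeine against 1910 and 3913, and 2950 in the BY4742 library 37 in caffeine against 9023 and 9450.

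**Figure D1:**
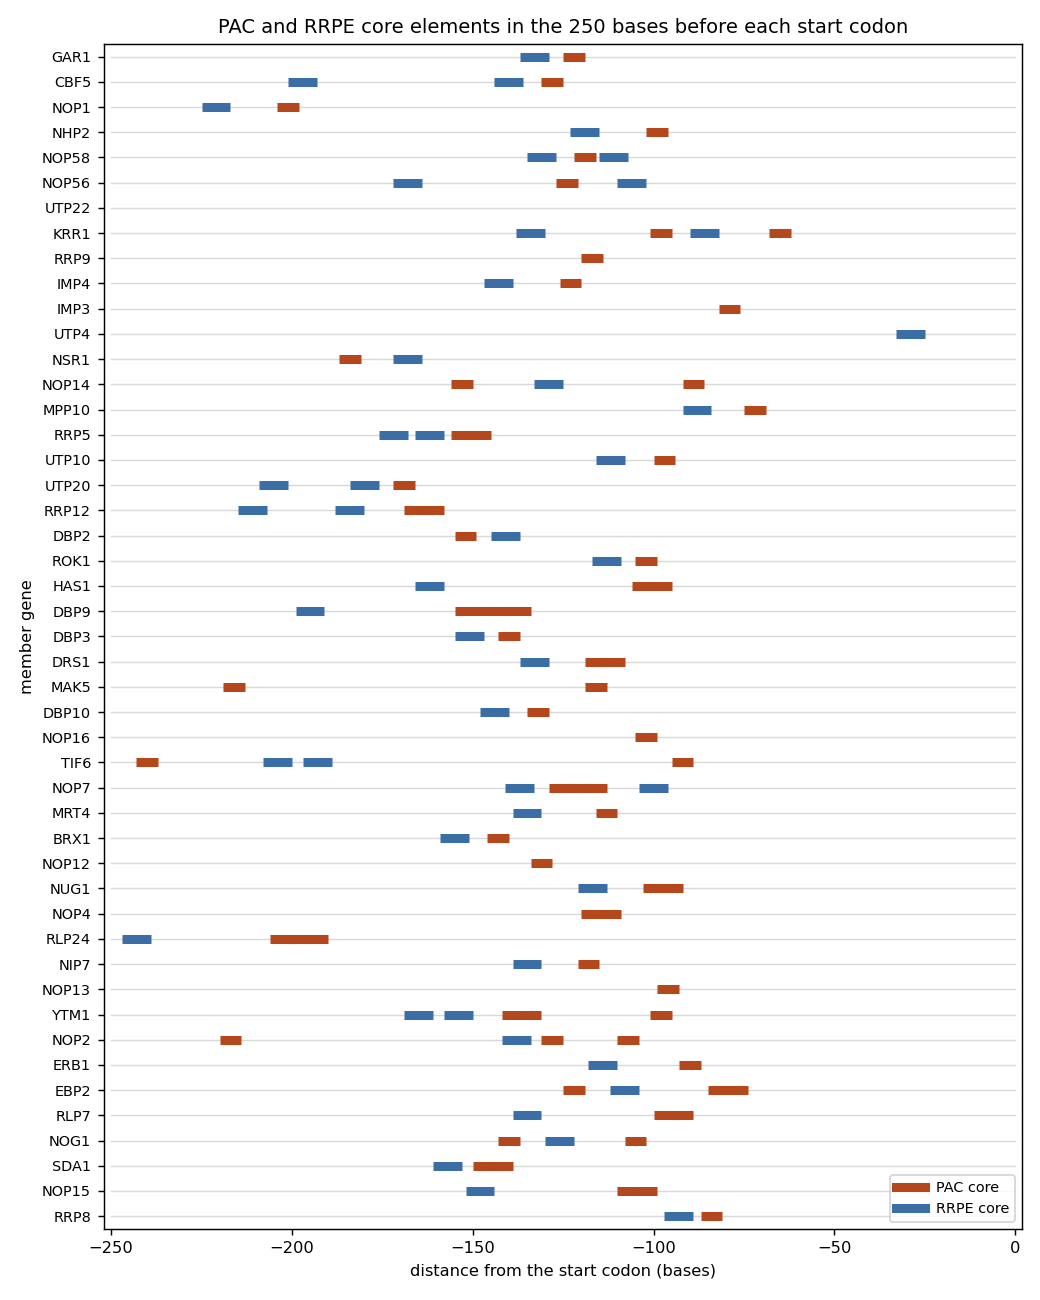
Position of PAC core (orange) and RRPE core (blue) elements in the 250 bases before the start codon of each of the 47 genes, 1 row a gene, with the distance from the start codon in bases on the horizontal axis. Of the 47 genes, 45 hold a PAC core and 39 an RRPE core, and the sites gather at a median of -123 and -144 bases.

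The promoter sequences show what the 47 genes share that the choice by name did not use. The PAC core was searched as GATGAG and the RRPE core as AAAATTTT on both strands of the 250 bases before each start codon of build R64, copies that overlap being counted separately. A PAC core was found for 45 of the 47 (95.7%) and an RRPE core for 39 (83.0%), whereas among 6001 protein-coding genes 17.0% held PAC and 8.65% held RRPE. Both were found for 38 of the 47 (80.9%), against 4.08% of all genes. All 6 snoRNP core genes held both. PAC alone was found before NOP4, NOP12, NOP13, NOP16, MAK5, RRP9 and IMP3, RRPE alone before UTP4, and neither before UTP22. The first base of the PAC sites lay at a median of -123 bases from the start codon (quartiles -147 and -102.75, 72 sites) and that of the RRPE sites at -144 (quartiles -172 and -123, 49 sites), whereas PAC sites of all genes lay at a median of -131 with wider quartiles of -190 and -87. The elements were not particular to the 47 genes. Of 104 other ribosome assembly factors, 86.5% held PAC, 71.2% held RRPE and 61.5% held both. Of 15 genes of RNA polymerase I subunits and RRN3, 53.3% held both. Ribosomal protein genes, which are transcribed through other elements, held PAC in 10.2% and RRPE in 6.57% of 137 promoters. The letters are a description of these windows and not evidence that a factor binds there.

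The stretches below are shown because these genes lie at the ends of the comparisons that follow. Each is read 5′ to 3′ on the coding strand, with PAC cores (GATGAG or its reverse complement CTCATC) and RRPE cores in capitals. They come from RefSeq's sequence of build R64.
NOP1 (YDL014W), chrIV:427127-427177, plus strand: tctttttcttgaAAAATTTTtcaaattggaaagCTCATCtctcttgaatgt
GAR1 (YHR089C), chrVIII:283406-283447, minus strand: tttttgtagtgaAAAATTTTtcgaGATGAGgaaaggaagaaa
NSR1 (YGR159C), chrVII:807809-807855, minus strand: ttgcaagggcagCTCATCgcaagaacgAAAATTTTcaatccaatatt
DBP2 (YNL112W), chrXIV:413472-413513, plus strand: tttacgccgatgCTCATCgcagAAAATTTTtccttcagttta
MRT4 (YKL009W), chrXI:426091-426143, plus strand: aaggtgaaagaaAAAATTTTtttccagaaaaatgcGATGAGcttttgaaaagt
NOP16 (YER002W), chrV:156686-156715, plus strand: agaaaaataggcGATGAGataaatttataa
RRP12 (YPL012W), chrXVI:529496-529576, plus strand: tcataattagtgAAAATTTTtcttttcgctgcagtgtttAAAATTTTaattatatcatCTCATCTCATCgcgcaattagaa
UTP20 (YBL004W), chrII:227415-227481, plus strand: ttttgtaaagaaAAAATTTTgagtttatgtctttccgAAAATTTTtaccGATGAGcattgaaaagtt
The elements did not sort the genes by direction. RRP12 and UTP20, which were higher in caffeine in BY4742, and DBP2 and GAR1, which were among the lowest there, all held both elements. In BY4742 the median log2 fold change in caffeine was -0.28 over the 38 genes with both elements, -0.32 over the 7 with PAC alone, -0.14 for UTP4 and -0.89 for UTP22.

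Levels are first given per length, in transcripts-per-million units (TPM, the values deposited by the authors), so that genes can be compared. NSR1, the yeast relative of nucleolin, was the most abundant with a mean of 557 TPM over the 24 libraries and a range of 299 to 929 TPM. NHP2 (YDL208W) followed with 541 TPM (375 to 704), NOP1, the methyltransferase fibrillarin, with 532 TPM (284 to 758), and GAR1, of the pseudouridylating snoRNPs, with 443 TPM (250.3 to 601). The lowest were UTP20 with 18.3 TPM (9.16 to 27.0), UTP10 (YJL109C) with 32.7 TPM (17.9 to 49.2) and UTP22 (YGR090W) with 33.5 TPM (20.8 to 55.5), which are large scaffold proteins of the 90S particle. The ranges of the 4 most abundant genes overlapped, as did those of the 3 lowest, while no library of a gene from the upper group came near the lower group. The TPM of DBP2 is understated, since it is the only one of the 47 with an intron and its length of 2643 bases in the files includes it, against a coding length of 1641.

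All comparisons below use CPM after TMM scaling, in which edgeR sets library sizes so that most genes do not shift. A log2 fold change is given with its standard error (SE), and a gene is called where edgeR's quasi-likelihood test across 6400 genes gives an adjusted p under 0.05 (Benjamini-Hochberg). Bulk RNA cannot tell fewer cells of a kind from less RNA per cell. The 47 genes together gave 7038 ± 337 CPM in BY4742 in caffeine and 9226 ± 62.0 CPM in BY4742 without caffeine (SD, n = 3 each), with no overlap between the libraries. In YPS606 the sums were 10796 ± 231 in caffeine and 12535 ± 1342 without, and the highest library in caffeine (10983) lay below the lowest without (11335). In Y55 they were 14350 ± 1341 in caffeine and 13121 ± 1641 without, and in UWOPS87_2421 13643 ± 1318 in caffeine and 13363 ± 795 without, overlapping in both strains. BY4742 thus had the lowest sum of the 4 strains with caffeine and without.

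The scaling decides how these sums read. As a plain share of all estimated counts, the 47 genes took 0.835% to 0.894% in BY4742 in caffeine and 0.849% to 0.886% without, and these ranges overlap. Ribosomal protein genes took 8.66% to 13.5% of the counts in BY4742 in caffeine and 19.3% to 20.0% without, and the TMM factors were 1.17 to 1.26 in caffeine and 0.915 to 0.961 without. With library totals in place of TMM the median log2 fold change of all genes in caffeine moved up by 0.40 in BY4742, by 0.25 in YPS606, by 0.12 in Y55 and by 0.22 in UWOPS87_2421, so every direction below is relative to most other genes.

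**Figure D2:**
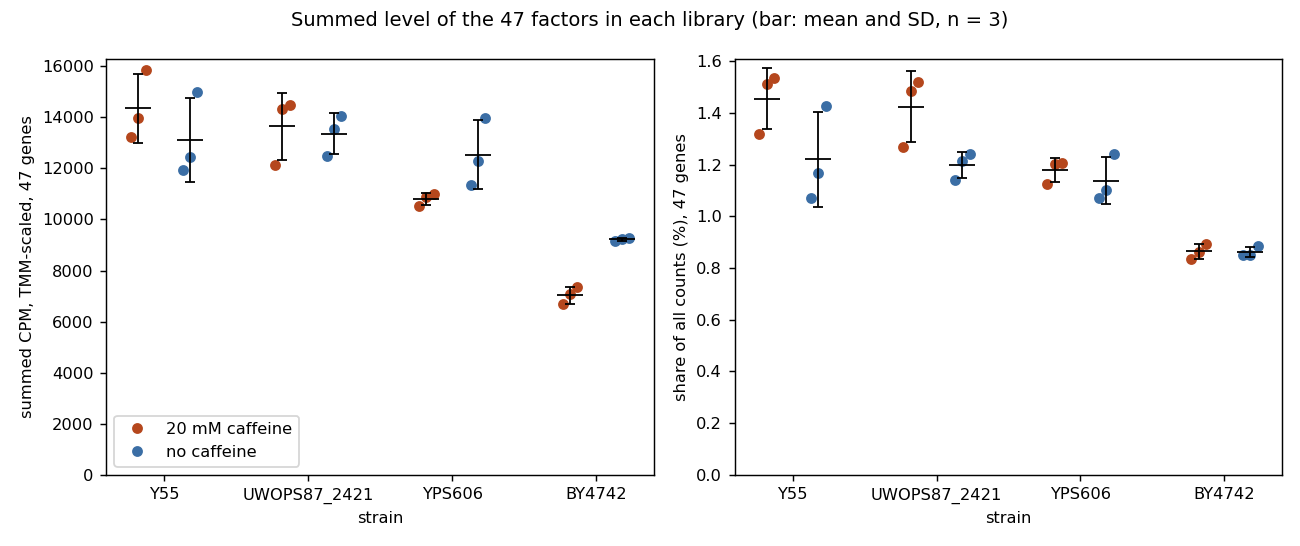
Summed level of the 47 genes in each of the 24 libraries, by strain, in TMM-scaled CPM (left) and as a percentage of all estimated counts (right), with caffeine left of no caffeine and bars for the mean and SD of 3 libraries. The BY4742 libraries in caffeine lie between 6676 and 7342 CPM, below those without caffeine between 9167 and 9291 CPM, while as a percentage of counts they overlap.

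In BY4742, 23 of the 47 genes fell in caffeine and 2 rose, with a median log2 fold change of -0.29, against 25.0% of all genes lower and 27.5% higher and a median of 0.03. In 26 of the 47 every library in caffeine lay below every library without, against 30.7% of all genes. The fall ran through all 6 genes of the snoRNP core, 5 of the 8 helicases, 9 of the 20 pre-60S factors and 3 of the 13 factors of the 90S and pre-40S particles, whose only other calls were the 2 that rose. Since these genes were grouped with earlier results known, the shares describe the groups and are not a test between them. With library totals and no scaling factor, 8 of the 47 were lower (CBF5, DBP2, GAR1, KRR1, NOP1, NOP16, NOP7 and TIF6) and 12 were higher, with a median of 0.11, against 9.59% of all genes lower and 51.8% higher and a median of 0.42.

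The snoRNP core as a whole gave 1703 ± 162 CPM in BY4742 in caffeine and 2778 ± 152 CPM without (SD, n = 3 each), and its genes had log2 fold changes between -0.82 and -0.60. NOP1 stood at 373, 425 and 409 CPM in caffeine and at 672, 681 and 603 CPM without. All 3 libraries in caffeine lay below all 3 without, with a log2 fold change of -0.70 (SE 0.12, edgeR adjusted p = 6.28e-05). GAR1, which helps the pseudouridine synthase on its targets, stood at 133, 197 and 128 CPM in caffeine and 299, 282 and 227 CPM without (log2 fold change -0.82, SE 0.16, edgeR adjusted p = 0.000246). CBF5 (YLR175W), the synthase itself, averaged 398 ± 18.2 CPM in caffeine and 693 ± 32.7 CPM without (log2 fold change -0.80, SE 0.11, edgeR adjusted p = 4.32e-06). NHP2 fell by 0.67, NOP58 by 0.65 and NOP56 by 0.60 on the log2 scale. NOP56 lost its call without the BY4742 library 29 in caffeine or library 33 without caffeine.

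The lowest value of the 47 was that of the helicase DBP2, with 295, 119 and 313 CPM in caffeine and 546, 516 and 444 CPM without (log2 fold change -1.05, SE 0.24, edgeR adjusted p = 0.00112). The value of 119 belongs to library 37, the library in caffeine whose stress genes were low, and the gene kept its call without it. Of the other helicases, ROK1 fell by 0.54, HAS1 by 0.33, DBP9 by 0.32 and DBP3 by 0.29, whereas DRS1, MAK5 and DBP10 had values between -0.05 and 0.10 that did not pass the test. HAS1, DBP9 and DBP3 each lost the call when some library was left out, and all 3 had values above 0 with library totals.

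Among the pre-60S factors NOP16 had the lowest value. It stood at 53.9, 59.6 and 52.7 CPM in BY4742 in caffeine and at 108, 102 and 107 CPM without (log2 fold change -0.93, SE 0.14, edgeR adjusted p = 1.2e-05). TIF6 (YPR016C), which keeps the large subunit from joining the small one too early, stood at 146, 130 and 148 CPM in caffeine and 257, 255 and 245 CPM without (log2 fold change -0.84, SE 0.09, edgeR adjusted p = 3.02e-07). MRT4, which holds the place of the ribosomal stalk protein, stood at 95.6, 86.0 and 115 CPM in caffeine and 156, 157 and 162 CPM without (log2 fold change -0.68). In all 3 genes the groups lay apart. NOP7 also fell by 0.68, while ERB1 and YTM1, its partners in the PeBoW complex, had values of -0.15 and -0.17 that did not pass the test. BRX1 fell by 0.51, NOP12 by 0.49, NUG1 by 0.34, NOP4 by 0.32 and RLP24 by 0.29, and of these BRX1, NOP4 and RLP24 lost the call without some library. The 11 other pre-60S factors had values between -0.28 and 0.05.

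The 90S and pre-40S factors went both ways. UTP22, part of the UTP-C module, stood at 59.1, 73.0 and 73.8 CPM in BY4742 in caffeine and at 120, 128 and 133 CPM without (log2 fold change -0.89, SE 0.24, edgeR adjusted p = 0.00446). KRR1 fell by 0.65 and RRP9 by 0.54, and RRP9 lost the call without some library. In the opposite direction, RRP12, a repeat protein needed for subunit export, stood at 160, 185 and 168 CPM in caffeine and 113, 101 and 133 CPM without (log2 fold change 0.57, SE 0.17, edgeR adjusted p = 0.00966). UTP20 stood at 95.0, 100.5 and 109 CPM in caffeine and 77.2, 77.6 and 74.95 CPM without (log2 fold change 0.40, SE 0.15, edgeR adjusted p = 0.0313). UTP10 had 127, 140 and 147 CPM in caffeine and 101, 100.1 and 114 CPM without, and its log2 fold change of 0.39 (SE 0.18) did not pass the test at an edgeR adjusted p of 0.0733. In all 3 of these genes each library in caffeine lay above each library without. UTP20 lost its call without library 37 or 45 in caffeine or library 41 without caffeine, whereas RRP12 kept it in every leave-one-out fit. The 13 genes as a sum moved little, with 1750 ± 83.0 CPM in caffeine and 1830 ± 48.1 CPM without.

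Leaving out each BY4742 library in turn gave 15 to 24 genes lower, and 16 of the 25 called genes kept the call each time. The 15 came without library 29 in caffeine, a fit in which 1371 of all 6414 genes were lower. Without library 37, in which ribosomal protein genes took 13.5% of the counts against 8.96% and 8.66% in libraries 29 and 45, 24 were lower and 1 was higher. Over all 6423 genes tested in that fit, 1647 were lower and 1756 higher. The part of the stress genes and of the ribosomal protein share in these values was not tested.

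**Figure D3:**
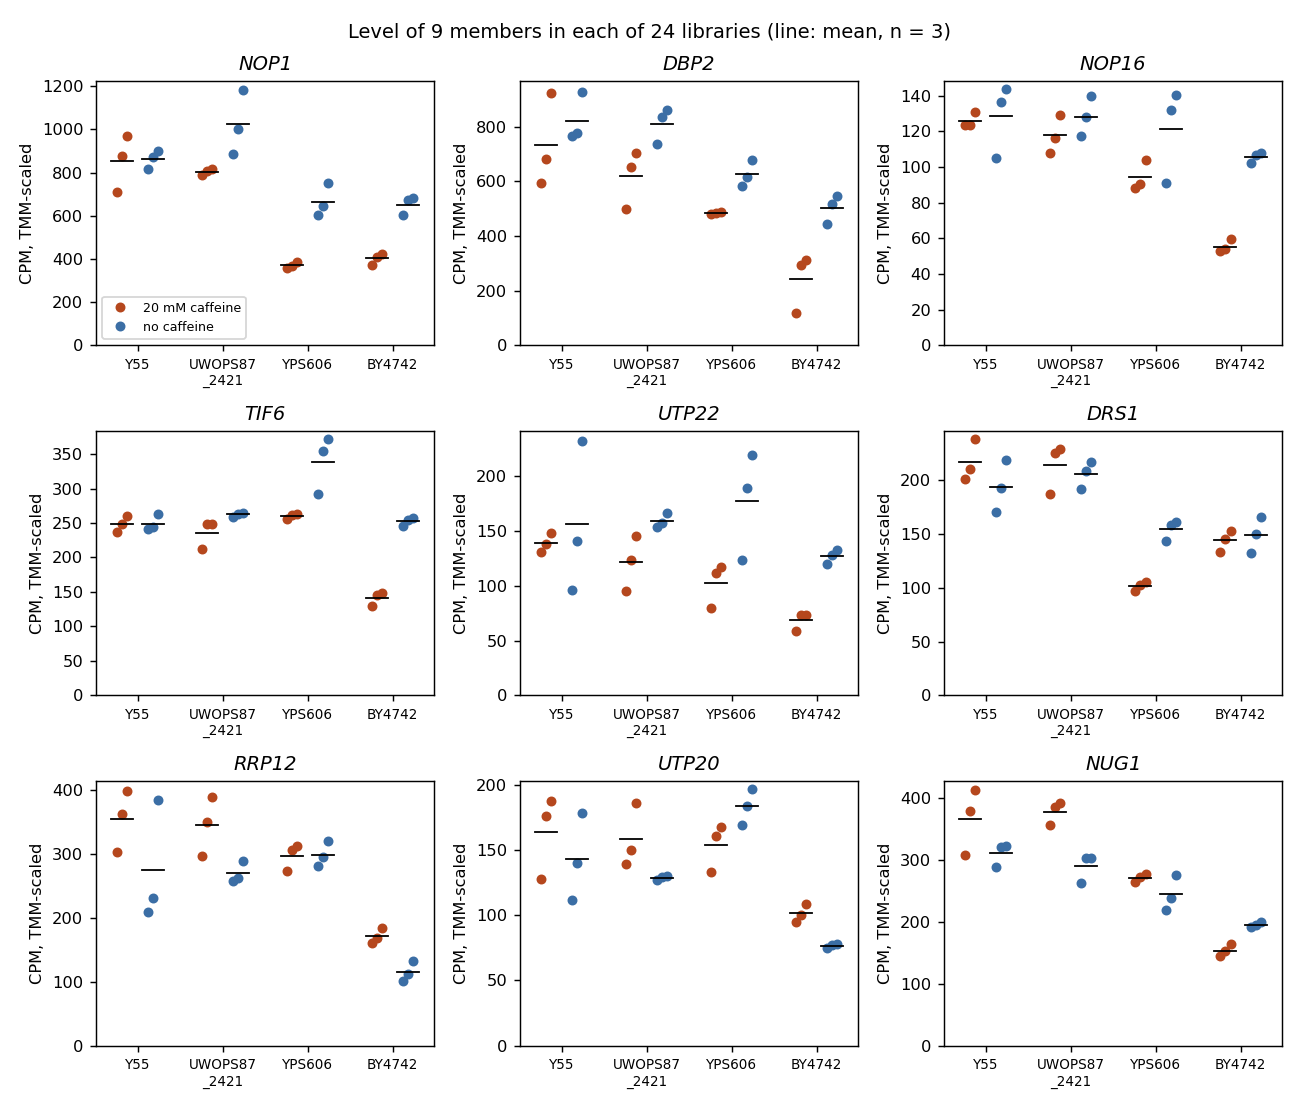
Level of 9 of the 47 genes in each library in TMM-scaled CPM, by strain, with 20 mM caffeine left of no caffeine and lines at the mean of 3 libraries. NOP1, for example, lies at 373 to 425 CPM in caffeine and 603 to 681 CPM without in BY4742, and at 711 to 971 CPM in caffeine and 814 to 898 CPM without in Y55.

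In YPS606, 10 of the 47 genes fell in caffeine and none rose, with a median of -0.16, against 20.0% of all genes lower and 20.5% higher. NOP1 was the lowest, at 368, 360.1 and 384 CPM in caffeine and 749, 601 and 646 CPM without (log2 fold change -0.84, SE 0.12, edgeR adjusted p = 1.72e-05). The other calls in the snoRNP core were GAR1, which fell by 0.46, and CBF5, which fell by 0.38. UTP22 stood at 80.1, 111 and 117 CPM in caffeine and 220, 189 and 123 CPM without (log2 fold change -0.78, SE 0.24, edgeR adjusted p = 0.0136). Its value of 123 belongs to library 42, the library without caffeine whose stress genes were high. The helicase DRS1 (YLL008W), which acts on the large subunit, stood at 105, 102 and 96.7 CPM in caffeine and 161, 158 and 143 CPM without (log2 fold change -0.60, SE 0.11, edgeR adjusted p = 0.00021). In all 3 genes the groups lay apart. TIF6, NOP16, NOP7, KRR1 and NOP2 fell by between 0.38 and 0.30 on the log2 scale.

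Of these 10 genes, 8 were also called lower in BY4742 (CBF5, GAR1, KRR1, NOP1, NOP16, NOP7, TIF6 and UTP22). They make up 80.0% of the YPS606 calls and 34.8% of the BY4742 calls. DRS1 and NOP2 were called in YPS606 and not in BY4742. The matching shares over all genes were not computed, so whether this overlap exceeds that of other genes was not tested. The genes with the highest values were NSR1 with 795 ± 39.5 CPM in caffeine and 718 ± 70.3 CPM without, NUG1 with 270 ± 6.37 and 244 ± 28.4 CPM and RLP24 with 178 ± 15.5 and 160 ± 25.7 CPM (SD, n = 3 each). Each had a log2 fold change of 0.15 with overlapping libraries and none passed the test, with edgeR adjusted p-values of 0.275 to 0.35. Leaving out each library gave 3 to 15 genes lower. The 3 came without library 26 without caffeine, 6 without library 38 in caffeine and 15 without library 42, and NOP1, DRS1 and TIF6 kept the call each time. Over all genes, 934 of 6426, 996 of 6425 and 1352 of 6426 were lower in these fits. With library totals 2 genes were lower (DRS1 and NOP1) and 6 were higher, against 6.70% of all genes lower and 36.4% higher.

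In Y55, 2 of the 47 genes rose in caffeine and none fell, with a median of 0.16, against 8.64% of all genes higher and 5.77% lower. At an unadjusted p under 0.05 there were 13, against 28.4% of all genes. RLP24 (YLR009W), which holds the place of a ribosomal protein on the pre-60S subunit, stood at 230.2, 201 and 235 CPM in caffeine and 168, 151 and 194 CPM without (log2 fold change 0.38, SE 0.12, edgeR adjusted p = 0.039). DBP3 (YGL078C), a helicase of early large-subunit processing, stood at 344, 262 and 307 CPM in caffeine and 228, 220 and 275 CPM without (log2 fold change 0.34, SE 0.10, edgeR adjusted p = 0.0264), and its groups overlapped. Both lost the call when some library was left out. The genes lowest in Y55 were UTP22, DBP2 and GAR1 with log2 fold changes of -0.17, -0.17 and -0.08, and their libraries overlapped. UTP22 stood at 130, 148 and 138 CPM in caffeine and 141, 96.4 and 233 CPM without. The value of 233 belongs to library 43, the shallowest of the series, and that of 96.4 to library 35, in which the stress genes were high. The highest values that were not called were those of NOP15 (0.38, edgeR adjusted p = 0.091) and RRP12 (0.37, edgeR adjusted p = 0.163).

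The Y55 count turned on single libraries. It was 0 without library 27, without library 31 and without library 35, 1 without library 47, 4 without library 39 and 10 without library 43. Over all 6426 to 6431 genes tested in these fits, 382, 342, 563, 329, 653 and 432 were higher in the same order. Without libraries 39 and 43, the shallowest of the series, 15 genes were higher (9.35% of all genes), and without the 4 libraries with almost no URA3 counts (27, 28, 31 and 32) none was (3.05%). With library totals 14 were higher (14.8%).

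In UWOPS87_2421, 2 of the 47 genes rose and 1 fell, with a median of 0.11, against 14.7% of all genes higher and 13% lower. NUG1 (YER006W), a GTPase of the pre-60S subunit, stood at 391, 356 and 385 CPM in caffeine and 303, 303 and 263 CPM without (log2 fold change 0.38, SE 0.10, edgeR adjusted p = 0.0101). DBP3 stood at 315, 281 and 309 CPM in caffeine and 238, 245 and 225 CPM without (log2 fold change 0.36, SE 0.10, edgeR adjusted p = 0.0112). NOP1 fell, with 809, 788 and 817 CPM in caffeine and 1182, 1002 and 883 CPM without (log2 fold change -0.35, SE 0.12, edgeR adjusted p = 0.035). The groups did not overlap for any of these. All 3 lost the call without some library, NUG1 and DBP3 without library 44 only. DBP2 (-0.39), UTP22 (-0.39) and GAR1 (-0.38) lay lower than NOP1 but were not called, with edgeR adjusted p-values of 0.241, 0.244 and 0.0818. The highest values that were not called were those of NOP15 (0.37) and RRP12 (0.36), with edgeR adjusted p-values of 0.0633 and 0.13. The count of higher genes was 0 without library 44 and 5 without library 40. Over all genes, 678 of 6429 and 770 of 6427 were higher in those fits. None of the 47 was called in either direction without libraries 27, 28, 31 and 32, against 7.33% of all genes higher and 5.05% lower. With library totals 23 were higher, against 29.5% of all genes.

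More of the 47 genes were called between strains than between caffeine and no caffeine. Without caffeine, 30 of the 47 genes were higher in YPS606 than in BY4742 (21.0% of all genes), 30 in Y55 (20.0%) and 33 in UWOPS87_2421 (20.8%), with medians of 0.43, 0.50 and 0.55, and none was lower, against 17.1%, 13.9% and 15.8% of all genes. All 3 comparisons use the same 3 BY4742 libraries. RRP12 was the highest in each. It stood at 321, 295 and 282 CPM in YPS606 and at 113, 101 and 133 CPM in BY4742 (log2 fold change 1.37, SE 0.18, edgeR adjusted p = 2.51e-06). In Y55 it stood at 231, 209 and 385 CPM (log2 fold change 1.25, edgeR adjusted p = 8.85e-06), the highest value being that of library 43. In UWOPS87_2421 it stood at 262, 290 and 258 CPM (log2 fold change 1.23, edgeR adjusted p = 1.11e-05). No library of these strains reached down to the BY4742 range.

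UTP20 averaged 183 ± 13.6 CPM in YPS606 and 76.6 ± 1.44 CPM in BY4742 (log2 fold change 1.26, edgeR adjusted p = 1.36e-06). NSR1 stood at 919, 846 and 1130 CPM in Y55 and at 1030, 1054 and 926 CPM in UWOPS87_2421, against 473, 473 and 464 CPM in BY4742, with log2 fold changes of 1.04 and 1.09 (edgeR adjusted p = 7.16e-07 and 3.42e-07). In YPS606 it differed by 0.61. NOG1 (YPL093W), a GTPase of the pre-60S subunit, had 519 ± 70.8 CPM in YPS606, 488 ± 62.6 CPM in Y55 and 538 ± 25.0 CPM in UWOPS87_2421, against 252 ± 28.5 CPM in BY4742 (SD, n = 3 each). Calls at or above 2-fold were RRP12, UTP20 and NOG1 in YPS606, RRP12 and NSR1 in Y55, and RRP12, NOG1 and NSR1 in UWOPS87_2421, against 6.98%, 7.47% and 7.36% of all genes.

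At the other end, KRR1 (YCL059C) stood at 164 ± 20.8 CPM in YPS606, 151 ± 6.13 CPM in Y55 and 144 ± 5.75 CPM in UWOPS87_2421, against 170 ± 10.8 CPM in BY4742. Its log2 fold changes of -0.05, -0.17 and -0.25 did not pass the test (edgeR adjusted p = 0.731, 0.24 and 0.0809). The lowest also included NOP12 (-0.03) and SDA1 (-0.00) in YPS606, TIF6 (-0.02) and NOP14 (0.06) in Y55, and TIF6 (0.06) and BRX1 (0.08) in UWOPS87_2421. By role, the 3 strains had 8, 9 and 10 of the 13 factors of the 90S and pre-40S particles higher, 5, 6 and 7 of the 8 helicases, 13, 12 and 12 of the 20 pre-60S factors and 4, 3 and 4 of the 6 snoRNP core genes, in the order YPS606, Y55 and UWOPS87_2421. Leaving out each library gave 21 to 35, 22 to 32 and 26 to 33 higher genes in that order.

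**Figure D4:**
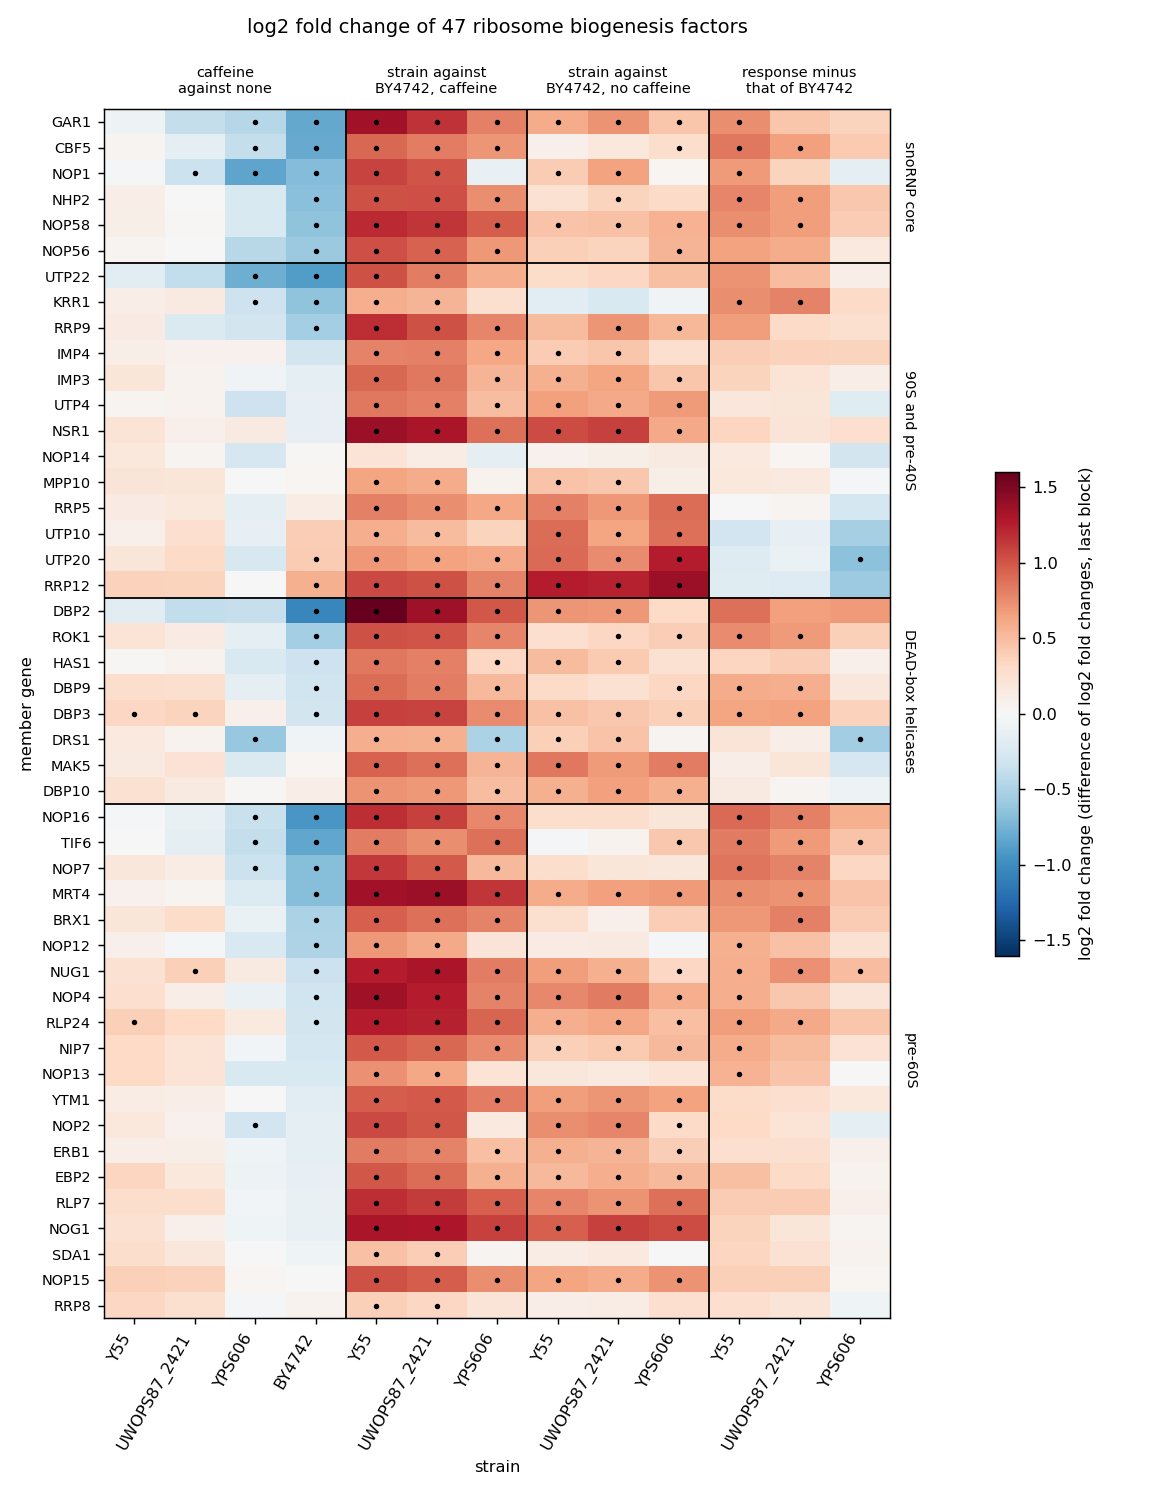
Log2 fold change of the 47 genes (rows, by role group) in the 4 caffeine comparisons, the 3 strain comparisons in caffeine, the 3 without caffeine and the 3 differences of caffeine response (columns), on a colour scale in log2 units with a dot where the gene was called. In caffeine 46 of the 47 genes are higher in Y55 and 46 in UWOPS87_2421 than in BY4742, and NOP14 is the 1 gene not called in either.

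In caffeine more of the 47 genes were higher than in BY4742 and the medians were larger, least so in YPS606. There 35 of the 47 genes were higher in YPS606 (24.5% of all genes), 46 in Y55 (30.4%) and 46 in UWOPS87_2421 (28.1%), with medians of 0.62, 0.98 and 0.89. The one gene lower was DRS1 in YPS606 (22.0% of all genes were lower there), with 105, 102 and 96.7 CPM in YPS606 and 153, 134 and 146 CPM in BY4742 (log2 fold change -0.51, SE 0.11, edgeR adjusted p = 0.00067). In Y55 the libraries lay above those of BY4742 without overlap for all 47 genes (30.5% of all genes) and in UWOPS87_2421 for 46 (30.8%). A call with at least a 2-fold difference was reached by 22 genes in Y55 (9.94% of all genes), 17 in UWOPS87_2421 (8.77%) and 2 in YPS606 (7.66%).

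DBP2 was the highest in Y55, with 922, 681 and 594 CPM there and 295, 119 and 313 CPM in BY4742 (log2 fold change 1.59, SE 0.24, edgeR adjusted p = 1.47e-05). In UWOPS87_2421 it stood at 654, 499 and 706 CPM (log2 fold change 1.35, edgeR adjusted p = 0.0001) and in YPS606 at 485, 482 and 488 CPM (log2 fold change 1.0, just under 2-fold, edgeR adjusted p = 0.00201). Even the highest BY4742 library lay below every library of these strains. MRT4 led in UWOPS87_2421 with 259.9, 232 and 278 CPM (log2 fold change 1.37, edgeR adjusted p = 1.81e-07) and in YPS606 with 221, 214 and 220.0 CPM (log2 fold change 1.14, edgeR adjusted p = 2.54e-06), against 95.6, 86.0 and 115 CPM in BY4742. NSR1 averaged 1122 ± 187 CPM in Y55 and 1061 ± 80.5 CPM in UWOPS87_2421, against 430 ± 14.8 CPM in BY4742 (log2 fold changes 1.38 and 1.30). NOP4 (YPL043W), an RNA-binding protein of the pre-60S subunit, averaged 259 ± 27.4 CPM in Y55 and 101 ± 1.82 CPM in BY4742 (log2 fold change 1.35, edgeR adjusted p = 1.61e-08), and NOG1 496 ± 8.39 CPM in YPS606 and 232 ± 18.6 CPM in BY4742 (log2 fold change 1.09, edgeR adjusted p = 2.28e-06).

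NOP14 (YDL148C), a factor of the small subunit, was the 1 gene not called in Y55 or UWOPS87_2421, with 135 ± 14.2 and 126 ± 7.92 CPM there and 116 ± 4.68 CPM in BY4742 (log2 fold changes 0.22 and 0.12, edgeR adjusted p = 0.169 and 0.464). The next lowest there were the methyltransferase RRP8 (0.38 in Y55 and 0.33 in UWOPS87_2421) and SDA1 (0.47 and 0.40), all called. In YPS606, NOP14 had -0.15 and NOP1 -0.12, neither called. Leaving out each library gave 32 to 37 higher genes in YPS606 and 44 to 46 in Y55 and in UWOPS87_2421.

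Whether the strains responded differently to caffeine was tested as the difference of log2 fold changes, each strain minus BY4742, with the same 6 BY4742 libraries in all 3 differences. In Y55, 19 of the 47 genes had a higher response than in BY4742 (15.2% of all genes) and none a lower one (13.9%), with a median difference of 0.55. In UWOPS87_2421 the numbers were 14 (11%) and 0 (11.2%), with a median of 0.39. In YPS606, 2 were higher (6.86%) and 2 lower (5.94%), with a median of 0.15. The largest called difference in Y55 was that of NOP16, with log2 fold changes of -0.03 in Y55 and -0.93 in BY4742 and a difference of 0.90 (SE 0.19, edgeR adjusted p = 0.00185). NOP7 followed with 0.18 in Y55 and -0.68 in BY4742, a difference of 0.85 (SE 0.16, edgeR adjusted p = 0.000741). DBP2 had a difference of 0.88 (SE 0.34), which did not pass the test (edgeR adjusted p = 0.056). In UWOPS87_2421, NOP16 differed by 0.81 (SE 0.19, edgeR adjusted p = 0.00552), BRX1 by 0.80 (SE 0.27, edgeR adjusted p = 0.0369) and KRR1 by 0.79 (SE 0.15, edgeR adjusted p = 0.00127). Of these, BRX1 lost its call without some library.

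By role, 5 of the 6 snoRNP core genes, 10 of the 20 pre-60S factors, 3 of the 8 helicases and 1 of the 13 factors of the 90S and pre-40S particles had a higher response in Y55, and 3, 7, 3 and 1 in UWOPS87_2421. The large 90S proteins UTP10, UTP20 and RRP12 stood lowest in both strains, with differences of -0.31, -0.21 and -0.20 in Y55 and -0.13, -0.10 and -0.21 in UWOPS87_2421, none of which passed the test. In YPS606 the genes called were NUG1 (0.49, SE 0.15, edgeR adjusted p = 0.0322) and TIF6 (0.46, SE 0.13, edgeR adjusted p = 0.0207) with a higher response, and UTP20 (-0.66, SE 0.21, edgeR adjusted p = 0.0479) and DRS1 (-0.55, SE 0.15, edgeR adjusted p = 0.0206) with a lower one. UTP20 had 133, 168 and 161 CPM in YPS606 in caffeine and 197, 169.6 and 184 CPM without, whereas in BY4742 its libraries in caffeine were the higher ones. RRP12 had a like difference of -0.58 that did not pass the test (edgeR adjusted p = 0.126), and each of the 4 calls in YPS606 was lost without some library. The counts in Y55 and UWOPS87_2421 were 14 to 26 and 8 to 18 when each library was left out, with 8 without the UWOPS87_2421 library 44 and 9 without its library 48. Over all genes, 404 of 6429 and 488 of 6426 had a higher response in the fits without libraries 44 and 48. The counts in Y55 and UWOPS87_2421 were both 9 without libraries 27, 28, 31 and 32 (8.14% and 5.12% of all genes). With library totals they were 8 in Y55 (6.64%), 9 in UWOPS87_2421 (5.58%) and 0 in YPS606 (4.02%).

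**Figure D5:**
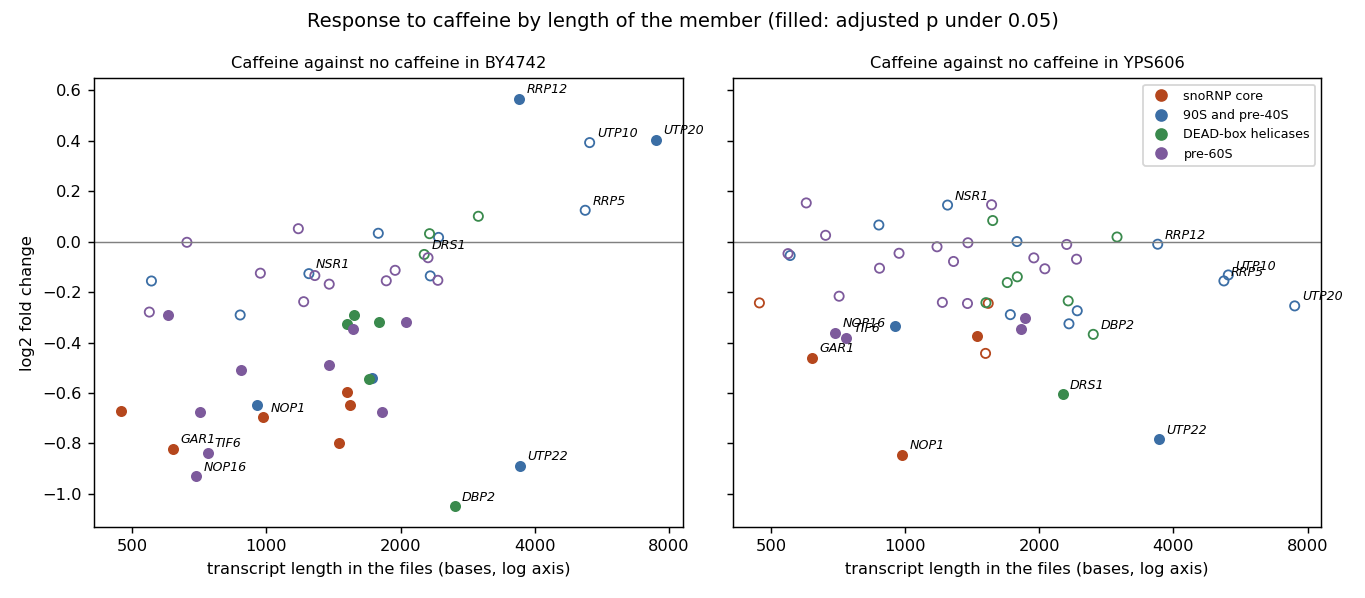
Log2 fold change in caffeine in BY4742 (left) and YPS606 (right) against the transcript length in the files on a log axis, for the 47 genes coloured by role, filled where the edgeR adjusted p is under 0.05. In BY4742 the 5 genes over 3000 bases have a median of 0.39 and the 14 genes under 1000 bases a median of -0.58.

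In BY4742 the longer genes had the higher values in caffeine. Across the 47 genes, which share the same 6 libraries and are not independent replicates, Spearman's rho between log2 fold change and length was 0.43, and across 104 other assembly factors it was 0.47, whereas over all 6400 genes it was 0.04. The 5 genes over 3000 bases (RRP12, RRP5, UTP10, UTP20 and UTP22) had a median of 0.39 and the 14 under 1000 bases a median of -0.58, against medians of 0.14 and -0.01 over all genes of these lengths. UTP22 went against this order, being long and among the lowest. In YPS606 rho was -0.11 over the 47 genes. All 5 genes over 3000 bases act in the 90S particle or on the pre-40S subunit, so length and role overlap there, and the part of length by itself was not tested.

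Other genes of the pathway were read from lists of known members. Of 104 other assembly factors, 27 fell and 10 rose in BY4742 in caffeine, with a median of -0.16, from EMG1 at -0.95 to NOP19 at 0.69. Over all genes 25.0% fell and 27.5% rose there, so the share of these factors that fell was near that of all genes. Of 15 genes of RNA polymerase I subunits and RRN3, 9 fell and 1 rose, with a median of -0.52. Of 137 ribosomal protein genes, 135 fell and none rose, with a median of -1.32, and 114 of them had counts that were not whole, so single paralogs are uncertain. In YPS606 the corresponding counts were 7 lower and 5 higher factors and 4 and 1 RNA polymerase I genes. For ribosomal protein genes they were 120 and 0, with a median of -0.77. Over all genes 20.0% were lower and 20.5% higher in YPS606. In Y55, 9 factors were higher and 1 ribosomal protein gene was lower, with a median of -0.32 over the 137. Over all genes 8.64% were higher and 5.77% lower there. In UWOPS87_2421, 5 factors were higher, 1 factor was lower and 98 ribosomal protein genes were lower, with a median of -0.63 over the 137. Over all genes 14.7% were higher and 13% lower in that strain. The ribosomal protein genes thus had medians below 0 in all 4 strains, whereas the 47 factors had medians of 0.16 and 0.11 in Y55 and UWOPS87_2421. Among strains without caffeine, 40, 50 and 63 of the 104 factors were higher in YPS606, Y55 and UWOPS87_2421 than in BY4742. Of the ribosomal protein genes only 7, 5 and 7 were, and over all genes 21.0%, 20.0% and 20.8%.

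The transcripts of some known regulators also differed. TOD6, which encodes a PAC-binding repressor, averaged 82.7 ± 4.07 CPM in BY4742 in caffeine and 30.7 ± 6.21 CPM without (SD, n = 3 each), which is 1.43 on the log2 scale (edgeR adjusted p = 1.14e-05), and 88.9 ± 3.16 CPM in YPS606 in caffeine and 59.2 ± 12.1 CPM without (0.59, edgeR adjusted p = 0.027). Its values in caffeine of 0.55 in Y55 and 0.28 in UWOPS87_2421 did not pass the test (edgeR adjusted p = 0.0781 and 0.336). Its relative DOT6 had 207 ± 16.5 CPM in BY4742 in caffeine and 292 ± 6.18 CPM without (-0.50, edgeR adjusted p = 0.00734), the opposite direction, and values of 0.24 in YPS606, -0.01 in Y55 and 0.09 in UWOPS87_2421 that did not pass the test. CRF1, a corepressor of ribosomal protein genes, had log2 fold changes above 0 in caffeine in all 4 strains. They were 1.42 in BY4742, 1.41 in YPS606, 0.47 in Y55 and 0.96 in UWOPS87_2421. HMO1, a protein of rDNA and ribosomal protein promoters, had values below 0 in all 4, with -0.54, -0.43, -0.64 and -0.75 in the same order. STB3, the activator SFP1 and the kinase SCH9 had values of 0.26, 0.34 and -0.21 in BY4742 in caffeine, of which only that of SFP1 was called (edgeR adjusted p = 0.0195).

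Without caffeine, where the 47 genes were mostly higher than in BY4742, TOD6 was higher as well and DOT6 lower. TOD6 averaged 59.2 ± 12.1 CPM in YPS606, 67.0 ± 21.6 CPM in Y55 and 79.3 ± 10.8 CPM in UWOPS87_2421, against 30.7 ± 6.21 CPM in BY4742, with edgeR adjusted p-values of 0.00103, 0.000232 and 2.42e-05. DOT6 averaged 167 ± 44.2, 136 ± 26.7 and 138 ± 9.80 CPM in these strains, against 292 ± 6.18 CPM in BY4742. SFP1, an activator of these genes, had log2 fold changes of 0.54, 0.55 and 0.41 against BY4742, all called. SCH9 averaged 53.8 ± 9.95 CPM in Y55 and 60.4 ± 3.25 CPM in UWOPS87_2421, against 142 ± 4.91 CPM in BY4742 (edgeR adjusted p = 1.93e-07 and 1.02e-06), and had a value of -0.35 in YPS606 that was not called.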

How the data were processed

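The members and gene lists were chosen with earlier results of these data known. Reads of stranded mRNA libraries (75 bases, single end) were trimmed by the authors with Trimmomatic 0.36 and pseudo-aligned with kallisto 0.44.0 to yeast transcripts of build R64, with no strand option stated, and the authors deposited an estimated count, an effective length and TPM for 6713 transcripts per library. They also deposited 6 tables of their DESeq2 comparisons (log2 fold change, standard error, p-values and a mean of normalized counts), which were not used.

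Estimated counts were rounded. In R 4.3.3, edgeR 4.0.16 with limma 3.58.1 kept 6400 transcripts by its low-count filter over 8 groups, scaled libraries by TMM and fitted all 24 libraries with 1 coefficient per group. The quasi-likelihood test was run for 13 comparisons with Benjamini-Hochberg adjustment and a threshold of 0.05. SE is the size of the log2 fold change divided by the square root of F. The smallest 2-sided p of an exact permutation test is 0.1 at this size. The method was run on simulated counts in which a small random set of genes was changed in a single group. The simulation held no broad shift like that of the ribosomal protein genes in caffeine. It thus does not test how the scaling handles such a shift.

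Values per library were given for the 3 highest and 3 lowest genes of a comparison or of mean TPM and for NOP1. Other genes of the 47 may be named. Regulators were named from a list of 10, and from other lists the lowest and highest gene. Promoters were read from the R64 genome of RefSeq, whose annotation matched 6026 of 6713 identifiers and all 47 members. Alternatives were DESeq2 1.42.0, RLE size factors, no filter, effective length offsets, fits of the groups compared alone and leaving out each library. After seeing the data, library totals with no scaling factor, leaving out libraries 39 and 43, leaving out libraries 27, 28, 31 and 32, and a block of 3 sets of library numbers were added.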

Additional observations from a re-analysis of the deposited data

Results flagged for a closer look

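These values are differences between the caffeine response of a strain and that of BY4742, each tested as an interaction term in edgeR. They drew attention because that test passed at an adjusted p under 0.05. In YPS606, 2 of the 47 genes had a higher response than in BY4742 (6.86% of all genes). Of the genes named by rule, NUG1 differed by 0.49, UTP20 by -0.66 and DRS1 by -0.55, and each of these calls was lost without some library. In Y55, 19 genes had a higher response (15.2% of all genes), and NOP16 differed by 0.90 and NOP7 by 0.85. In UWOPS87_2421, 14 genes had a higher response, and NOP16 differed by 0.81, BRX1 by 0.80 and KRR1 by 0.79. The 3 sets of differences share the BY4742 libraries, and Y55 and UWOPS87_2421 differed from each other in 4 genes of 6400, so the counts are not independent of each other.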

How the results depend on the processing

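Every library carries a number of its own and no label pairs libraries, but the numbers run through the 8 groups in 3 sets (25 to 32, 33 to 40 and 41 to 48), and the 4 libraries low in URA3 are all in the first. A fit with these sets as a replicate block, added after seeing the data, gave 23 lower in caffeine in BY4742, 10 in YPS606, 2 higher in Y55 and 2 in UWOPS87_2421, and 2, 20 and 14 higher responses in YPS606, Y55 and UWOPS87_2421. The deviations of libraries of the same set correlated at a median of -0.02 (-0.30 to 0.35, 48 pairs of groups and sets). The counts of higher genes in strains against BY4742 stayed within 1.5 times the main count under every alternative run. With library totals and no scaling factor, 8 of the 47 genes were lower (9.59%) and 12 higher (51.8%) in BY4742 in caffeine. In YPS606, 2 were lower (6.70%) and 6 higher (36.4%), and 14 were higher in Y55 (14.8%) and 23 in UWOPS87_2421 (29.5%). With these totals, the responses that differed from BY4742 were 0 higher in YPS606 (4.02%), 8 in Y55 (6.64%) and 9 in UWOPS87_2421 (5.58%). NOP4 (0.0789), DBP3 (0.10), DBP9 (0.0743), HAS1 (0.0584), NUG1 (0.0481) and RLP24 (0.10) were then above 0 in BY4742 in caffeine. DESeq2 gave 5 higher in Y55 and 5 in UWOPS87_2421 in caffeine and 5 responses above that of BY4742 in YPS606, and RLE size factors gave 4 higher in UWOPS87_2421. Fits of the groups compared alone gave 0 higher in Y55 (1.5%) and 8 in UWOPS87_2421 (23.6%) in caffeine. In YPS606 these fits gave 1 higher response (4.76%) and 4 lower ones (5.52%). Without libraries 39 and 43 there were 15 higher in Y55 (9.35%) and 7 in UWOPS87_2421 (16.6%) in caffeine. Higher responses in that fit numbered 4 in YPS606 (8.09%) and 31 in Y55 (13%). Without libraries 27, 28, 31 and 32 there were 0 higher in Y55 (3.05%) and 0 in UWOPS87_2421 (7.33%). Higher responses there numbered 0 in YPS606 (5.01%), 9 in Y55 (8.14%) and 9 in UWOPS87_2421 (5.12%). The causes were not tested.

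Leaving out each library gave 15 to 24 genes lower in caffeine in BY4742 and 3 to 15 in YPS606, and 0 to 10 higher in Y55 and 0 to 5 in UWOPS87_2421. Without caffeine it gave 21 to 35 higher in YPS606 than in BY4742, 22 to 32 in Y55 and 26 to 33 in UWOPS87_2421, and in caffeine 32 to 37, 44 to 46 and 44 to 46. Higher responses numbered 0 to 8 in YPS606, 14 to 26 in Y55 and 8 to 18 in UWOPS87_2421. Over all 6413 to 6431 genes tested in these fits, 1331 to 1647 were lower in caffeine in BY4742 and 934 to 1352 in YPS606. In Y55 329 to 653 were higher and in UWOPS87_2421 651 to 770. Without caffeine 1062 to 1396 were higher in YPS606 than in BY4742, 979 to 1250 in Y55 and 1027 to 1124 in UWOPS87_2421. In caffeine the ranges were 1330 to 1630, 1651 to 1982 and 1556 to 1866 in the same order. Higher responses over all genes numbered 284 to 714 in YPS606, 696 to 1136 in Y55 and 404 to 1010 in UWOPS87_2421. Of the 298 calls on single genes in all comparisons, 290 held with DESeq2, 295 with the replicate block, 283 with RLE size factors, 297 with no filter, 295 with length offsets, 269 in fits of the groups compared alone, 239 with library totals, 289 without libraries 39 and 43 and 250 without libraries 27, 28, 31 and 32. A gene not called is not shown to be unchanged.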
